A study of Rattus norvegicus with 11 samples.

Results

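Small RNA was sequenced from livers of outbred Sprague-Dawley rats, all male, 4 weeks old when a treatment of 7 days began. The TPN group (5 rats) received total parenteral nutrition, which feeds an animal by vein alone. The Control group (6 rats) ate standard chow and received 0.9% saline intravenously. No genetic alteration or further agent is named for either group. Each library is named here by its group and rat number.

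Described here are the microRNAs with registry numbers of 1000 or higher, which entered the sequence registry late, after the abundant microRNAs of most tissues had been named. Members were the rows of the deposited table whose name begins with rno-miR- and whose number is 1000 or higher, in every letter and arm, with miR-1193 left out. There were 63 members among 1331 rows. The table also held 470 other rows with a rat microRNA name and 798 rows for predicted microRNAs, which carry only a running number. The 63 members carried 49 distinct numbers, from 1247 to 7578. Just inside the number limit, miR-1247-3p averaged 1.56 counts per 1000000 reads (CPM), between 0 and 5.51, and miR-1247-5p averaged 0.391 CPM, between 0 and 1.67. Just outside it, miR-881-3p averaged 0.126 CPM, between 0 and 0.662, and miR-1193-3p, left out by rule, averaged 0.483 CPM, between 0 and 1.77.

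MicroRNAs are short RNAs cut from the arms of a folded hairpin, first by Drosha in the nucleus and then by Dicer in the cytoplasm, and loaded into an Argonaute protein. The seed, bases 2 to 8 of the mature strand, does most of the pairing with target mRNAs, and microRNAs that share a seed form a family. One strand of a hairpin, the 5p or the 3p arm, is usually kept and the other degraded. Numbers are given in order of registration, so high numbers largely came from deep sequencing. Some such entries are hairpins within other structured RNAs, such as small nucleolar RNAs, which guide chemical modification of ribosomal RNA, or small Cajal body RNAs, which do the same for spliceosomal RNA. In human cells, the Cajal body RNA ACA45 (SCARNA15) is a known source of a Dicer-dependent small RNA. Liver is dominated by few microRNAs, among them miR-122 of hepatocytes.

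Mature sequences were taken from RefSeq (build GRCr8), where 54 of the 63 members were matched by name. The set below holds the 6 members whose mean reached 10 CPM and whose levels carry most of the results. Each is written 5′ to 3′ with the seed in capitals.
miR-3559-5p: uGACAGACuuaguacuacauga
miR-3559-3p: aUGUAGUAcugagucugucgug
miR-1843a-5p: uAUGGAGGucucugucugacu
miR-1839-5p: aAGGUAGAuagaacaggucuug
miR-6329: aAUGUGACucagcuaucugaaca
miR-6215: uUUAGGGUugcagagccagg

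None of these 6 seeds belonged to another rat microRNA of the RefSeq table. Of the 54 matched members, 50 had a seed of their own and 4 (7.41%) shared it with another mature sequence, against 34.0% of the 427 other rat-named rows that were matched. The 4 were miR-1843a-3p and miR-1843b-3p, which share a seed with each other, miR-3065-5p, which shares one with miR-7a-1-3p, and miR-3084a-5p, which shares one with miR-3084c-5p. The sequences were 18 to 25 bases long with a median of 22, also the median of the other rat-named rows. Their median GC content was 48.9%, against 47.6%, and U was the first base in 46.3%, against 38.9%. In the RefSeq gene table, 41 of the 54 lay within the span of another gene, 27 of them on the same strand.

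The hairpins behind members at 1 CPM or more come from different kinds of RNA. RefSeq lists miR-1839 within Scarna15, the rat counterpart of the human RNA named above, miR-1843a within Scarna3, and miR-3068 within Snora58, so 3 of the hairpins found at 1 CPM or more carry the names of nucleolar or Cajal body RNAs. Scarna3 lies within the span of Dcaf5 and Snora58 within that of Alkbh1, each on the gene's own strand. Mir3559 lies within the span of Zdhhc15, whose product attaches palmitate to proteins, and Mir6329 lies opposite to Rdx, which encodes the membrane linker radixin. To show how both arms face each other, the hairpins of the most abundant member and of miR-1839 follow, 5′ to 3′, with the 5p and 3p arms in capitals.
Mir3559: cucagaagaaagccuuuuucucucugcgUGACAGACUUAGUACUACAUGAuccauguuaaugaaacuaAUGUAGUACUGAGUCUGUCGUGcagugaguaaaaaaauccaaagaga
Scarna15: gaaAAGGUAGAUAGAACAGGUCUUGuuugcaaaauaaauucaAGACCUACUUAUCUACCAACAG

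Although the full seed of miR-1839-5p is its own, its bases 2 to 7 (AGGUAG) also occur within the first 8 bases of 12 of the other 692 mature sequences (1.73%). Those 12 were 8 members of the let-7 family, miR-98-5p of the same family and 3 miR-196 forms. In let-7a-5p the run starts 1 base later, at base 3. It is in capitals in the next 2 sequences.
miR-1839-5p: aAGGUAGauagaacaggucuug
let-7a-5p: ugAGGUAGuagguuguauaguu

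Nearly every member was found at least once, but most were scarce. Reads were recovered as whole numbers from the CPM values, 1 read being worth the smallest value of its library. At least 1 read was found for 62 of the 63 members (98.4%) and for 462 of the 470 other rat-named rows (98.3%). The exception was miR-3580-5p, at 0 reads in every library, which allows up to 0.203 CPM in the deepest library (TPN 8, 14788757 reads) and up to 2.14 CPM in the shallowest (Control 12, 1404858 reads), taking 3 reads as the limit of a count of 0. Reads in all 11 libraries were found for 15 members (23.8%), against 257 of the other rows (54.7%). Reads in at least 6 libraries were found for 28 members (44.4%), against 351 (74.7%). At least 3 reads in 1 library were reached by 39 members and by 392 of the other rows. Reads in only 1 library were found for 12 members and for 40 of the other rows.

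Measured as mean CPM over the 11 libraries, 6 members (9.52%) reached 10 CPM, 9 lay between 1 and 10 CPM, and 48 (76.2%) lay below 1 CPM. Of the other rat-named rows, 162 (34.5%) reached 10 CPM and 205 (43.6%) lay below 1 CPM. The median of the members' means was 0.0987 CPM, against 1.94 CPM. All members together held 1138 CPM on average, which is 0.114% of the reads. That share ran from 0.0854% in TPN 15 (exact Clopper-Pearson 95% interval 0.0835 to 0.0874) to 0.167% in Control 5 (0.163 to 0.171). These bounds and the limits of a count of 0 reflect counting error alone. In every library miR-3559-5p alone made up more than the rest of the members together, 53.6% to 72.5% of their sum.

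**Figure D1:**
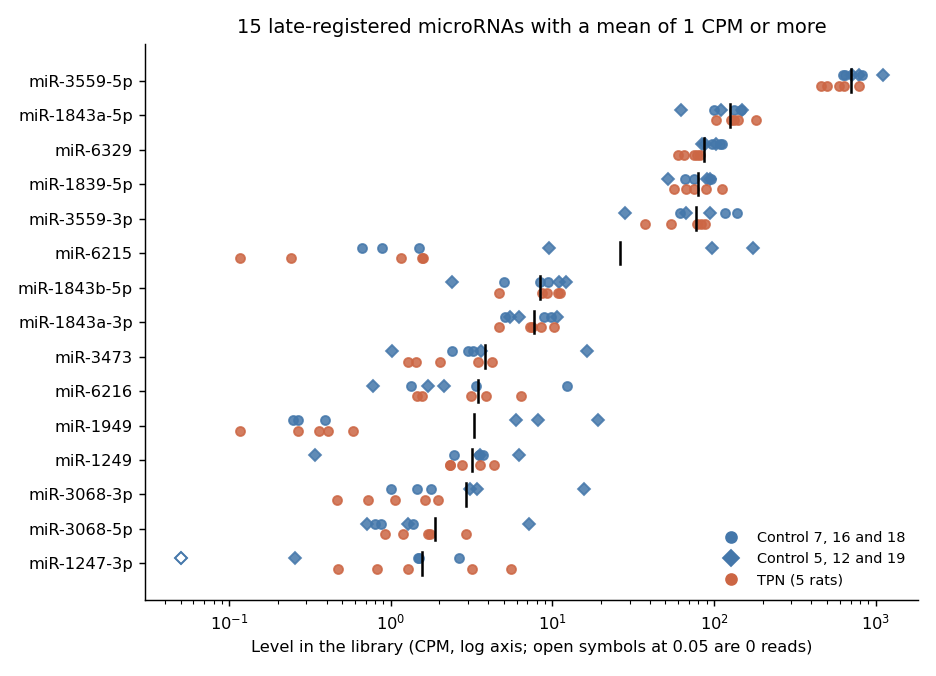
Level of each of the 15 members whose mean reached 1 CPM (rows) in each library (horizontal log axis, CPM). Blue circles are Control 7, 16 and 18, blue diamonds are Control 5, 12 and 19, red circles are the 5 TPN rats, black bars are means, and open diamonds at 0.05 stand for 0 reads. The upper 5 members spread less on this axis than miR-6215 and miR-1949, which hold their highest values in Control 5, 12 and 19.

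The most abundant member was miR-3559-5p, ranked 33 among all rat-named rows. It was at 1114, 824, 784, 625, 645 and 712 CPM in Control 5, 7, 12, 16, 18 and 19, and at 640, 784, 502, 458 and 594 CPM in TPN 6, 8, 11, 15 and 16. Control 5 was highest and TPN 15 lowest, and the groups overlapped. The mean over all rats was 698 CPM ± 179 (SD, n = 11), resting on 55506 reads, and the coefficient of variation (CV, the SD as a percent of the mean) was 25.7%.

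Its opposite arm, miR-3559-3p, was less abundant in every library and varied more. It was at 67.3, 61.6, 94.0, 139, 117 and 28.0 CPM in Control 5, 7, 12, 16, 18 and 19, and at 37.6, 54.0, 87.6, 78.0 and 83.0 CPM in TPN 6, 8, 11, 15 and 16. Control 16 and 18 were the highest and Control 19 the lowest, so the whole TPN range lay within that of Control. The CV was 42.4%.

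Next came miR-1843a-5p, from the Scarna3 hairpin. It was at 149, 132, 110, 99.3, 146 and 62.1 CPM in Control 5, 7, 12, 16, 18 and 19, and at 102, 181, 132, 141 and 126 CPM in TPN 6, 8, 11, 15 and 16. TPN 8 was highest and Control 19 lowest. Its mean was 126 CPM ± 31.4 (SD, n = 11) and its CV 25.1%.

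A level near 80 CPM was held by miR-1839-5p, from the Scarna15 hairpin. It was at 90.2, 95.6, 94.7, 65.8, 75.4 and 51.5 CPM in Control 5, 7, 12, 16, 18 and 19, and at 88.7, 112, 56.7, 75.6 and 66.9 CPM in TPN 6, 8, 11, 15 and 16. The groups overlapped, with TPN 8 above every Control rat and Control 19 below every TPN rat. The mean was 79.4 CPM ± 18.5 (SD, n = 11), the CV was 23.3%, and let-7a-5p, whose bases it partly shares, averaged 961 CPM.

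The lowest CV among these members, 19.7%, was that of miR-6329. It was at 103, 112, 88.3, 97.6, 108 and 83.6 CPM in Control 5, 7, 12, 16, 18 and 19, and at 60.1, 78.8, 81.9, 64.9 and 74.9 CPM in TPN 6, 8, 11, 15 and 16. Every TPN rat lay below every Control rat. Control averaged 98.8 CPM ± 11.2 (SD, n = 6), whereas TPN averaged 72.1 CPM ± 9.29 (SD, n = 5). In this order of means, miR-1843a-5p, miR-6329, miR-1839-5p and miR-3559-3p (126, 86.7, 79.4 and 77.0 CPM) overlapped in range, while miR-3559-5p lay above all of them in every library.

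**Figure D2:**
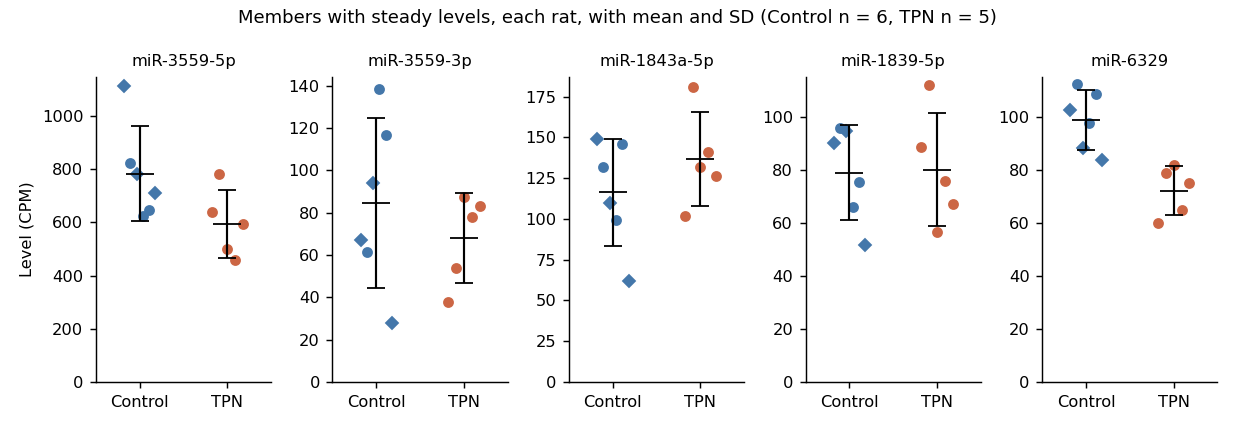
CPM of 5 members whose mean reached 10 CPM in each rat (points), by group, with the mean (long bar) and SD (short bars), Control n = 6 and TPN n = 5. Diamonds are Control 5, 12 and 19. The groups overlap for miR-3559-5p, miR-3559-3p, miR-1843a-5p and miR-1839-5p, whereas the miR-6329 values of TPN (60.1 to 81.9 CPM) lie below those of Control (83.6 to 112 CPM).

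The sixth member above 10 CPM, miR-6215, was of another kind, since 2 libraries set its mean. It was at 96.9 CPM in Control 5, 175 CPM in Control 12 and 9.56 CPM in Control 19, while the other 8 libraries lay between 0.117 and 1.59 CPM. Its CV was 217%, and its mean was 26.3 CPM. In RefSeq, Mir6215 lies opposite to Iffo2. In the same 3 libraries predicted rows took 0.517%, 2.0% and 0.560% of the library, compared with 0.0965% to 0.145% elsewhere, and reads were fewer (3891974, 1404858 and 2929983, against 7549952 or more). Their part in the levels of the members was not tested.

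A similar pattern was seen in miR-1949, which lies within the Matr3 gene on its strand. It was at 5.91 CPM in Control 5, 19.2 CPM in Control 12 and 8.19 CPM in Control 19, and the other 8 libraries lay between 0.117 and 0.582 CPM. For miR-3068-3p, from Snora58, Control 5, 12 and 19 were at 3.08, 15.7 and 3.41 CPM and the other 8 libraries between 0.467 and 1.96 CPM. In these 3 members, Control 5, 12 and 19 were the highest libraries. A single library stood highest in the next members. In miR-3473 it was Control 12, at 16.4 CPM against 1.02 to 4.20 CPM in the other libraries. In miR-6216 it was Control 7, at 12.4 CPM against 0.771 to 6.41 CPM.
miR-1949: uAUACCAGgaugucagcauaguu
miR-3068-3p: gGUGAAUUgcaguacuccaaca
miR-3473: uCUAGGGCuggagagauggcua
The lines above give these sequences 5′ to 3′ with the seed in capitals, for those members whose level was set by few libraries.

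**Figure D3:**
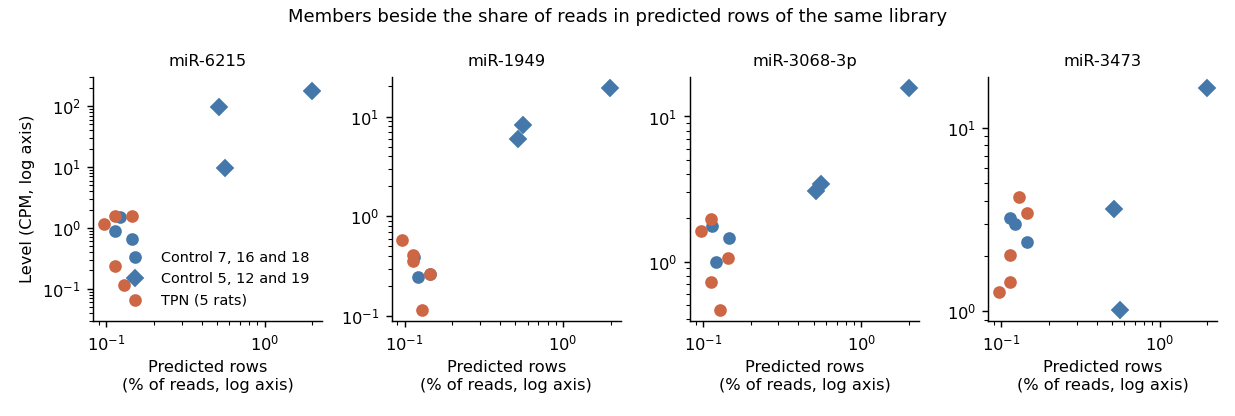
Level of miR-6215, miR-1949, miR-3068-3p and miR-3473 (vertical log axis, CPM) against the percent of the library's reads in predicted rows (horizontal log axis), 1 point per rat. Control 5, 12 and 19 (diamonds) have 0.517% to 2.0% of reads in predicted rows and the highest levels of the first 3 members, and Control 12 is the highest in all 4 panels.

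For miR-3473, a stretch of 15 bases also occurred in other places of the genome. Bases 7 to 21, in capitals in the line that follows, were found on either strand in 99 of 33469 RefSeq promoter windows (0.296%), which run from 250 bases before to 50 after a gene's start. The most frequent 15-base stretch of each of the other 14 members at 1 CPM or more was found in at most 1 window. How the authors treated reads that match several places is not given in the sources used here.
miR-3473: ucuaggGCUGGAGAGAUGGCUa

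The remaining members between 1 and 10 CPM were found in most libraries at a few CPM. A mean of 8.42 CPM was held by miR-1843b-5p (2.39 to 12.1 CPM), and one of 7.64 CPM by miR-1843a-3p (4.66 to 10.7 CPM). For miR-1249 the mean was 3.19 CPM (0.341 to 6.17 CPM), for miR-3068-5p 1.88 CPM (0.712 to 7.17 CPM, highest in Control 19) and for miR-1247-3p 1.56 CPM (0 to 5.51 CPM, highest in TPN 15). The median CV of the 9 members between 1 and 10 CPM was 99.0%, against 54.5% for the 103 other rat-named rows at that level. At 10 CPM or more it was 25.4% over 6 members, against 37.5% over 162 rows. Of the 15 members at 1 CPM or more, Control 12 was the highest library for 6, while among 265 other rat-named rows at that level it was highest for 27.

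The mature strands of miR-1843a and miR-1843b are nearly identical and were counted at different levels. RefSeq places miR-1843a in Scarna3 and miR-1843b within the Cop1 gene, which encodes a ubiquitin ligase. The 5p strand of miR-1843b starts 1 base later than that of miR-1843a, and over the 20 bases both share there were 0 differences. The start moves the seed by 1 base, so these 5p strands have different seeds. The 3p strands share a seed and differ by A12C, with miR-1843a-3p given first and positions counted from 1 at the 5′ end, over 21 bases compared. Both pairs are set out below, with seeds in capitals.
miR-1843a-5p: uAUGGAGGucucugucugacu
miR-1843b-5p: aUGGAGGUcucugucugacuuag
miR-1843a-3p: uCUGAUCGuucaccuccauaca
miR-1843b-3p: uCUGAUCGuuccccuccauac

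Levels were 126 CPM for miR-1843a-5p and 8.42 CPM for miR-1843b-5p, and 7.64 and 0.238 CPM for the 3p strands. How reads of such near-identical strands were divided is not given, so the split between a and b is uncertain. Identical values in all libraries with at least 1 other row were found for 16 members, all of 3 reads or fewer, among them miR-3084a-5p and miR-3084b-5p with 3 reads each.

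Below 1 CPM, 13 members had reads in at least 6 libraries. Reads in all 11 libraries were found for miR-3558-3p, in 10 for miR-6315, miR-6324 and miR-3561-3p, and in 9 for miR-1839-3p, miR-3064-5p and miR-1306-5p. Reads were found in 8 libraries for miR-3558-5p and miR-6331, in 7 for miR-3585-5p, miR-3585-3p and miR-1843b-3p, and in 6 for miR-1247-5p. Mir1306 lies within the Dgcr8 gene, which encodes the RNA-binding partner of Drosha, and Mir3064 within Ddx5, which encodes a helicase that assists the same complex. Mir6331 has 14 other microRNA genes within 10 kb, among them Mir134, Mir154 and Mir382 of the imprinted Dlk1-Dio3 region. Control 12 was the highest library for miR-3064-5p (5.69 CPM) and for miR-1839-3p (3.56 CPM). It was also highest for miR-3586-3p, at 7.12 CPM (10 of the 19 reads of this member), with 0.771 CPM in Control 5, 1.02 CPM in Control 19 and at most 0.196 CPM in the other 8 libraries.

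By gene origin, several members were seldom read. Opposite to a better-known microRNA in RefSeq were miR-3590-3p (6 reads in all), miR-3074 (4 reads), miR-3549 (1 read) and miR-3065-5p (1 read). The strands they face were themselves low, with means of 0.374 CPM for miR-130a-5p, 1.75 CPM for miR-24-1-5p, 2.37 CPM for miR-193a-5p and 0.820 CPM for miR-338-3p. Of the microRNAs in the introns of Htr2c, a serotonin receptor gene of the brain, miR-1298 had 2 reads, both in Control 16. For miR-1306, inside Dgcr8, 56 reads came from the 5p and 16 from the 3p strand. The lists of gene origin also held miR-1224, miR-3120, miR-1912, miR-1264 and miR-1188, for which the table had no rat-named row.

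The number of members found in a library was highest in the deepest library and lowest in the shallowest ones. It was 30, 35, 23, 36, 33 and 23 of 63 in Control 5, 7, 12, 16, 18 and 19, and 27, 45, 31, 32 and 32 in TPN 6, 8, 11, 15 and 16. TPN 8, the deepest library, was the highest, and Control 12 and 19, the shallowest, were the lowest. Control averaged 30.0 ± 5.80 members (SD, n = 6), whereas TPN averaged 33.4 ± 6.80 (SD, n = 5). The difference of 3.4 members was 0.5 without TPN 8 and 2.0 without Control 12 or without Control 19. At the depth of Control 12, the hypergeometric expectation was 21.8 ± 1.37 members in Control and 20.1 ± 1.63 in TPN, with single libraries between 18.8 and 23.0. The direction between the groups thus differed between the depths as sequenced and equal depth. Without Control 5, 12 and 19, TPN was lower by 1.27 members as sequenced.

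**Figure D4:**
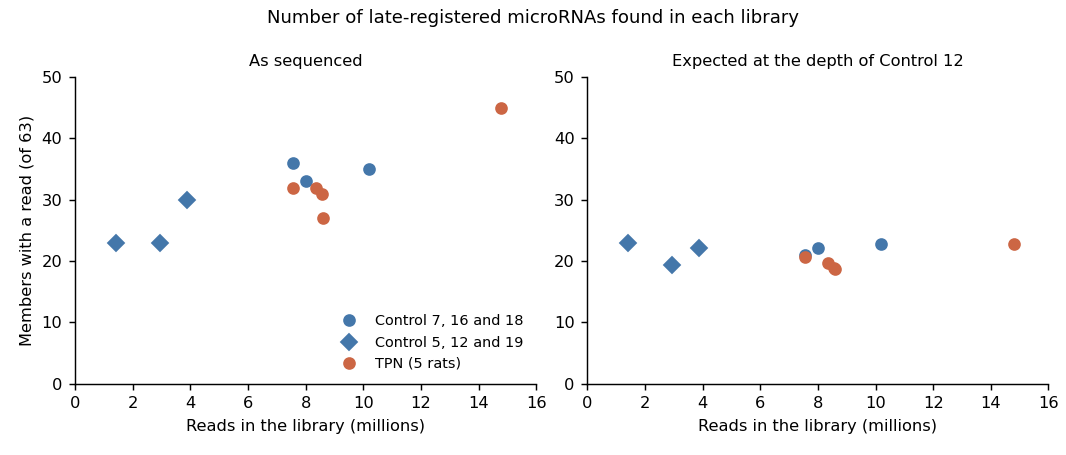
Number of the 63 members with a read in each library (vertical axis) against its reads, in units of 1000000 (horizontal axis), as sequenced (left) and by expectation at the depth of Control 12 (right). Circles are Control 7, 16 and 18 (blue) and TPN (red), diamonds are Control 5, 12 and 19. The spread from 23 to 45 on the left narrows to between 18.8 and 23.0 on the right.

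Summed over the members, Control averaged 1261 CPM ± 258 (SD, n = 6), whereas TPN averaged 991 CPM ± 156 (SD, n = 5). Control ranged from 983 CPM (Control 19) to 1667 CPM (Control 5) and TPN from 854 CPM (TPN 15) to 1254 CPM (TPN 8), so the groups overlapped. Without miR-3559-5p the sums were 477 ± 131 and 395 ± 54.3 CPM. These still held miR-6215, which averaged 47.4 CPM in Control, set mainly by Control 5 and 12, and 0.933 CPM in TPN. In bulk liver, fewer cells of a type and less RNA per cell cannot be told apart.

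The comparison of TPN with Control asks which liver microRNAs change under parenteral nutrition. It was made for all 535 rows whose mean reached 1 CPM, by limma-trend on log2(CPM + 1), with Benjamini-Hochberg adjustment over all rows. At an adjusted p under 0.05, 0 of 535 rows were called higher (0.0%) and 0 lower (0.0%), and thus 0 of the 15 members tested, with a smallest adjusted p of 0.296 over all rows. Before adjustment, p lay under 0.05 for 1 row that was higher (0.187%) and for 60 that were lower (11.2%). Among them were 0 higher and 2 lower members, miR-6329 and miR-6215. With edgeR's quasi-likelihood test on the recovered reads, 0 rows were called, and at an unadjusted p under 0.05, 8 rows were higher (1.5%) and 160 lower (29.9%). Of the 15 members, 7 had a negative and 8 a positive log2 fold change, and their median was 0.00090, against −0.56 over all rows and −0.26 over the 280 rat-named rows, 222 of them negative. The scale moved these medians. With TMM scaling, the medians were 0.30 for the members and 0.10 for rat-named rows. The median over all rows also depended on Control 5, 12 and 19. Without these libraries, on the CPM scale, it was −0.094, against −0.064 for the members and −0.28 for rat-named rows.

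The smallest p among the members was that of miR-6329, with a log2 fold change on the log2(CPM + 1) scale of −0.45 ± 0.18 (SE; limma-trend adjusted p = 0.296, unadjusted p = 0.0257). All 5 TPN rats were lower than the lowest Control rat. Such a full separation with TPN below was found for 8 of 535 rows (1.5%) and for 4 of 280 rat-named rows (1.43%). The median of these 280 rat-named rows, all with a mean of 1 CPM or more, was 17.7 to 27.0 CPM in Control libraries. In TPN libraries it was 13.4 to 18.7 CPM. Relative to that median, miR-6329 was 3.80 to 5.83 times as high in Control (median 4.45). In TPN it was 3.88 to 6.10 times as high (median 4.22), and the groups overlapped. The log2 fold change was −0.05 with TMM scaling, −0.11 with RLE scaling, −0.13 with DESeq2 and 0.92 with upper-quartile scaling. In rats numbered below 10 it was −0.63, and in rats numbered 10 or more −0.35.

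The next smallest p values belonged to members whose level rests on Control 5, 12 and 19. For miR-6215 the log2 fold change was −2.55 ± 1.17 (SE; limma-trend adjusted p = 0.296), and −0.13 without these 3 libraries. For miR-1949 it was −1.49 ± 0.73 (SE; limma-trend adjusted p = 0.296), and 0.04 without them. In both, the median of Control exceeded all 5 TPN rats. DESeq2 on the recovered reads called 3 of the members, while it called 5 rows higher (0.935%) and 108 lower (20.2%) of 535. Both miR-6215 (log2 fold change −5.27, DESeq2 adjusted p = 0.00138) and miR-1949 (−3.66, DESeq2 adjusted p = 0.0134) were called lower in TPN. Called higher in TPN was miR-1843a-5p (0.57, DESeq2 adjusted p = 0.0468). The rows of miR-6215 and miR-1949 passed the limit of 1 CPM through Control, since their TPN means were 0.933 and 0.346 CPM. A row let in this way must have the higher mean in Control, so tests of these rows are no support for a difference.

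Among members with a positive difference, the smallest p was that of miR-1247-3p, for which TPN averaged 2.25 CPM ± 2.10 (SD, n = 5), whereas Control averaged 0.979 CPM ± 1.07 (SD, n = 6). Its log2 fold change was 0.67 ± 0.52 (SE; limma-trend adjusted p = 0.401), 3 of 5 TPN rats lay above the Control median, and it was 0.36 without TPN 15 and −0.02 without Control 5, 12 and 19. The row of miR-1247-3p passed the limit of 1 CPM through TPN, since its Control mean was 0.979 CPM. Such a row must have the higher mean in TPN, so its test is no support for a difference. For miR-1843a-5p the log2 fold change was 0.26 ± 0.25 (SE; limma-trend adjusted p = 0.517), with 4 of 5 TPN rats above the Control median. It was 0.096 without Control 19 and 0.16 without TPN 8. For miR-1843b-5p it was 0.21 ± 0.38 (SE; limma-trend adjusted p = 0.777), and −0.044 without Control 19. The most abundant member, miR-3559-5p, had −0.39 ± 0.21 (SE; limma-trend adjusted p = 0.296), lower than the Control median in 4 of 5 TPN rats, and 0.02 with TMM scaling. The smallest difference among the 6 members above 10 CPM was that of miR-1839-5p, 0.01 ± 0.24 (SE; limma-trend adjusted p = 0.987).

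Marker microRNAs of liver cell types varied between rats beside these levels. The summed CPM of 5 hepatocyte rows ran from 54013 to 413428 in Control and from 66305 to 295946 in TPN. Of the red blood cell list, 3 of 4 rows were in the table and summed to 133 to 801 CPM in Control (median 316) and 31.3 to 261 CPM in TPN (median 34.8). The 5 immune rows summed to 159 to 275 CPM in Control and 145 to 214 CPM in TPN, the 5 biliary and epithelial rows to 462 to 1146 and 536 to 1629 CPM, and the 4 stellate cell rows to 18477 to 37532 and 12549 to 27934 CPM. The 3 brain rows summed to 18.1 to 62.4 and 20.6 to 58.9 CPM, and none of the markers in the table was at 0. Their part in the levels of the members was not tested.

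Both arms were in the table for 12 hairpins, and most kept mainly 1 arm. The 5p arm held 99.2% of the reads of miR-1839, 96.7% of miR-1843b, 94.7% of miR-1843a and 89.9% of miR-3559. It also held most reads of miR-3064 (93.3%), miR-5132 (80.0%, 5 reads in all) and miR-1306 (77.8%). The 3p arm was the main one for miR-3561 (5p share 6.06%), miR-1247 (20.6%) and miR-3558 (27.4%). The arms were nearly equal for miR-3068 (136 reads of 5p and 142 of 3p, 48.9% 5p) and closer to equal than most for miR-3585 (59.2%).

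Of the hairpins with at least 10 reads in every library, the 5p share was compared between groups in 2-sided exact permutation tests over all 462 regroupings, 4 in all. For miR-3559, Control averaged 89.9% ± 5.69 (SD, n = 6), whereas TPN averaged 89.3% ± 4.45 (SD, n = 5; exact p = 0.840). For miR-1843a it was 93.5% ± 2.24 and 94.7% ± 1.26 (exact p = 0.303), and for miR-1839 98.9% ± 1.35 and 99.1% ± 0.181 (exact p = 0.929). For miR-3068 it was 37.9% ± 21.0 in Control and 59.7% ± 13.7 in TPN (exact p = 0.0866, Benjamini-Hochberg adjusted p = 0.346). The lowest miR-3068 value, 4.35% in Control 12, rested on 1 read of 23 (exact 95% interval 0.110% to 21.9%), and without that rat the difference was 15.1 percentage points (exact p = 0.167). With each rat left out in turn, the exact p ran from 0.0238 (without Control 19, at 67.7%, 27.8 percentage points) to 0.190 (without TPN 11, 17.0 percentage points).

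The arms of miR-3559 varied between rats more than between groups. The 5p share was 94.3%, 93.0%, 89.3%, 81.9%, 84.7% and 96.2% in Control 5, 7, 12, 16, 18 and 19, and 94.4%, 93.6%, 85.1%, 85.5% and 87.7% in TPN 6, 8, 11, 15 and 16. The lowest rats were Control 16 and 18, with exact 95% intervals of 80.8% to 82.8% and 83.7% to 85.6%, and the highest was Control 19, with 95.3% to 97.0%. These intervals hold read counting error only, not the spread between rats. After these values were seen, they were set beside the share of reads taken by miR-122-5p, the hepatocyte microRNA. That share was 6.75%, 5.87%, 12.6%, 33.4%, 33.5% and 2.18% in the Control rats in the same order, and 2.54%, 5.05%, 20.6%, 22.8% and 17.7% in the TPN rats.

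Rats with a higher miR-122-5p share had a lower 5p share of miR-3559. Over 11 rats Pearson's r was −0.961 (2-sided permutation test, p = 1e-05, the smallest that 100000 permutations can give, adjusted p = 4e-05 over 4 hairpins), and Spearman's rho was −0.955 (permutation p = 4e-05, adjusted p = 0.00016). The adjusted p-values cover the 4 hairpins but not the choice of miR-122-5p, which was made after the arm shares were seen. Without the rats farthest from the median miR-122-5p share (Control 16 and 18) r was −0.982 (n = 9). Within Control it was −0.969 (n = 6), and within rats numbered 10 or more −0.935 (n = 7). No r is given within TPN (n = 5) or within rats numbered below 10 (n = 4), which hold fewer than 6 rats. For miR-1843a, miR-1839 and miR-3068, r was −0.346, −0.234 and −0.0488 (permutation p = 0.29, 0.53 and 0.89), and rho was −0.336, −0.647 and −0.128 (permutation p = 0.31, 0.036 and 0.71, adjusted p = 0.42, 0.071 and 0.71).

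**Figure D5:**
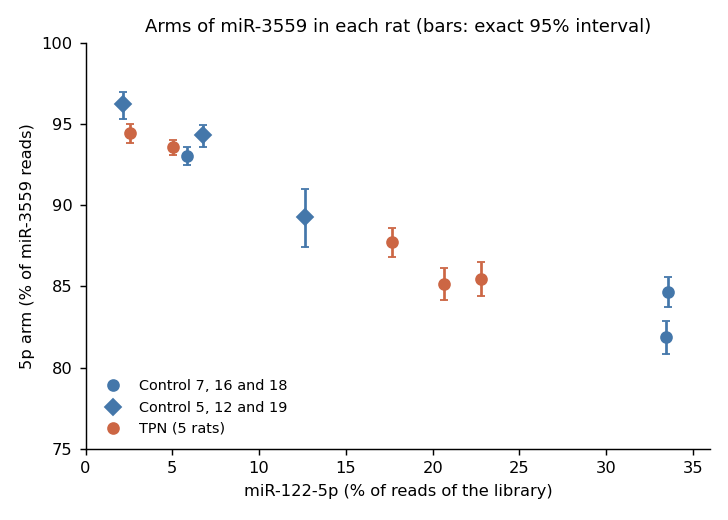
Percent of miR-3559 reads from the 5p arm (vertical axis, from 75 to 100) against the percent of the library's reads from miR-122-5p (horizontal axis), 1 point per rat, with exact 95% intervals. Control 7, 16 and 18 are blue circles, Control 5, 12 and 19 blue diamonds and TPN rats red circles. The 5p share falls from 96.2% in Control 19 to 81.9% in Control 16, and rats of both groups lie along the same course.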

How the data were processed

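Per the labels' protocols, liver RNA of 11 rats was extracted with TRIzol and small RNA libraries were sequenced on an Illumina HiSeq instrument. The authors deposited 1 table in CPM, each column summing to 1000000. DESeq2 is named, without version or role, per the submitters' processing notes. The sources used here do not give the trimming, aligner, counting, registry version or genome build. Reads were recovered by dividing each column by its smallest value, and 100% of the values above 0 were then whole within 0.001. Recovered totals ran from 1404858 to 14788757 reads and count only reads assigned to the table. A count of 0 allows 3 reads.

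The 535 rows whose mean reached 1 CPM were fitted in limma-trend (limma 3.58.1, R 4.3.3) on log2(CPM + 1) over all 11 rats, without covariates. P-values were adjusted by Benjamini and Hochberg's method. The alternatives on recovered reads were edgeR 4.0.16, DESeq2 1.42.0 and limma-voom. Other scalings, pseudocounts and filters were tried, and each rat was left out in turn. Only the limma-trend fit was tested on simulated data. No library pair shared its values. Rats are separate samples per the labels, which name no batch.

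The members, marker lists, origin lists and tests were chosen with earlier results of these data known. By the rule for names, members with a mean of 10 CPM or more are given with their value in each library, those between 1 and 10 CPM by mean and range, and those below with reads in at least 6 libraries by that number. The 3 smallest p in each direction are given in full, and both arms side by side. Members such as miR-3586-3p, and the relation of arm shares to miR-122-5p, were chosen after their values were seen. RefSeq tables (GRCr8) gave sequences and neighbouring genes, and coordinates are left out, since the build of the deposited table is not given. Figures were drawn with matplotlib 3.10.9.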

Additional observations from a re-analysis of the deposited data

Results flagged for a closer look

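In each group of 5 or 6 rats, the highest or lowest rat was compared with the rest by Dixon's ratio of the gap to the whole range. This was done for 42 combinations of a measure and a group, and 7 had a rat beyond the 95% critical value. Chance gives about 1 in 20.

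Of these, 4 were levels in Control. In Control 12, miR-3473 was at 16.4 CPM, with the other Control rats between 1.02 and 3.60 CPM, and miR-3068-3p was at 15.7 CPM, with the others between 0.999 and 3.41 CPM. In Control 7, miR-6216 was at 12.4 CPM, with the others between 0.771 and 3.37 CPM. In Control 19, miR-3068-5p was at 7.17 CPM, with the others between 0.712 and 1.37 CPM.

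The number of members with reads was 45 in TPN 8, the deepest library, against 27 to 32 in the other TPN rats. The 5p share of miR-1843a was 92.5% in TPN 16, against 94.8% to 95.6% in the other TPN rats. The 5p share of miR-1839 was 96.4% in Control 12, against 98.8% to 100% in the other Control rats. The Control 12 value rested on 133 reads of 5p and 5 of 3p (exact 95% interval 91.7% to 98.8%).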

How the results depend on the processing

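No row and no member was called under any alternative except DESeq2, which called 113 rows and 3 members. The cause was not tested. No paired analysis was possible because the groups share only 1 rat number, 16. The members' median log2 fold change was −0.30 over members whose mean reached 10 CPM, 0.30 with TMM, 0.25 with RLE and 0.95 with upper-quartile scaling, 0.29 with edgeR, 0.33 with limma-voom and −0.35 in rats numbered below 10, and −0.24 to −0.00022 with 1 rat left out. Detected members were 39 at 3 reads in a library, 28 with reads in at least 6 libraries and 59 to 62 with 1 rat left out. The difference in members per library, TPN minus Control, ran from 0.5 to 5.0 with 1 rat left out.

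The sign of the log2 fold change turned under these alternatives, and the cause was not tested. For miR-3559-5p it was 0.015 with TMM, 1.0 with upper-quartile scaling, 0.090 with edgeR and 0.087 with limma-voom. For miR-3559-3p it was 0.20 with TMM, 0.14 with RLE, 1.16 with upper-quartile scaling, 0.11 with edgeR, 0.015 with DESeq2, 0.24 with limma-voom and 0.030 in rats numbered 10 or more. For miR-6329 it was 0.92 with upper-quartile scaling and 0.0079 with edgeR. In rats numbered below 10 it was −0.042 for miR-1843a-5p and −0.38 for miR-1843b-5p. Without Control 5, 12 and 19 it was −0.0042 for miR-1839-5p, 0.039 for miR-1949 and −0.023 for miR-1247-3p. In rats numbered 10 or more it was −0.089 for miR-1839-5p. With 1 rat left out it ran from −0.12 to 0.13 for miR-1839-5p and from −0.044 to 0.40 for miR-1843b-5p. The difference in 5p share, in percentage points, was 2.75 for miR-3559 and −0.0122 for miR-1839 without Control 5, 12 and 19, and ran from −2.24 to 0.635 and from −0.371 to 0.354 with 1 rat left out, and from 15.1 to 27.8 for miR-3068. These share comparisons were added after seeing the data.

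Depth limits the 48 members below 1 CPM: in Control 12 a count of 0 allows 2.14 CPM.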
